A study of Arabidopsis thaliana with 18 samples.

Results

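Transcript levels in whole Arabidopsis thaliana plants that lack both phytochrome B and JAZ10 (jaz10phyb, the double mutant of jaz10 and phyb-9) were compared with those in wild-type Col-0 plants (Col), all sprayed with a mock solution. The arrays were chosen by their titles alone: 2 jaz10phyb and 2 Col arrays, 4 of the 18 in the series. The plants were 4 weeks old, had grown at 22 °C under 8 h of light a day, and were harvested 3 h after the spray. Each sample pooled at least 4 plants, and the labels of the groups differ only in genotype. The other 14 arrays held jaz10phyb and Col sprayed with 250 µM methyl jasmonate (MeJA) and the phyb and jaz10 single mutants under both sprays, with 3 arrays per phyb group and 2 per group otherwise. Which jaz10 allele was used is not stated in the labels. The comparison asks what the loss of both genes does to the transcriptome before any hormone is added. No label states that the pools came from separate growth batches, so p-values reflect no more than the spread between these pools.

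Jasmonates are hormones of wounding and defence. In their absence JAZ proteins, JAZ10 among them, hold back the MYC transcription factors, and the active hormone triggers JAZ degradation through the receptor COI1. Phytochrome B is the main red-light receptor of green tissue. It restrains the PIF transcription factors, and plants without it grow as if shaded and are known for weaker jasmonate defence.

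Signals are linear array intensities in arbitrary units. Differences are log2(signal + 1) in jaz10phyb minus Col with the standard error (n = 2 arrays per group), and a gene was called at a limma adjusted p under 0.05 over the 5689 genes tested. The replicate arrays correlated at 0.988 in jaz10phyb and 0.986 in Col over these genes, and the median difference over all of them was -0.02. With so few arrays, groups often do not overlap: 20.6% of all genes tested lay above Col without overlap and 24.2% below it. Neither PHYB nor JAZ10 had a named probe set here, so the genotype labels were not checked on the mutated genes. Over genes that responded to MeJA in jaz10, 2 phyb arrays lay on the side of the other spray. On a score, the mean centred log2 signal of the genes MeJA raised minus that of the genes it lowered, phyb mock array 2 stood at 0.64, against -0.87 and -0.67 for its fellows, and phyb MeJA array 3 stood at -0.82, against 0.69 and 0.44. They are no part of the comparison, but they enter the shared spread. Counts of called genes are therefore mostly given with all 18 arrays and with these 2 left out, which is called the reduced fit. The difference of a gene between jaz10phyb and Col is the same in both fits, and only its standard error and p-value change. The standard error is limma's, from the spread shared by all groups of a fit. Where p-values of both fits are given, the error printed is that of the fit given first.

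In mock-sprayed plants the double mutant carried more transcript of the defensin PDF1.2a, of cold and dehydration genes such as LTI30 and KIN2 and of the peroxidase PRXCA, and far less of the unnamed genes AT3G55920 and AT4G13575. With all arrays, 13 genes were called, 7 higher and 6 lower, which is 0.229% of the genes tested, and 436 had an unadjusted p under 0.05. The reduced fit called 79 genes, 48 higher and 31 lower (1.39% of those tested), among them all 13. Its further calls included the jasmonate oxidases JOX2, JOX3 and JOX4 on the higher side and the anthocyanin enzyme DFR on the lower side. A fit of the 8 Col and jaz10phyb arrays, which holds no phyb array, called 103 genes, 69 of them among the 79. A fit of only the 4 arrays compared called 63, 47 of them among the 79 and 10 among the 13.

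**Figure D1:**
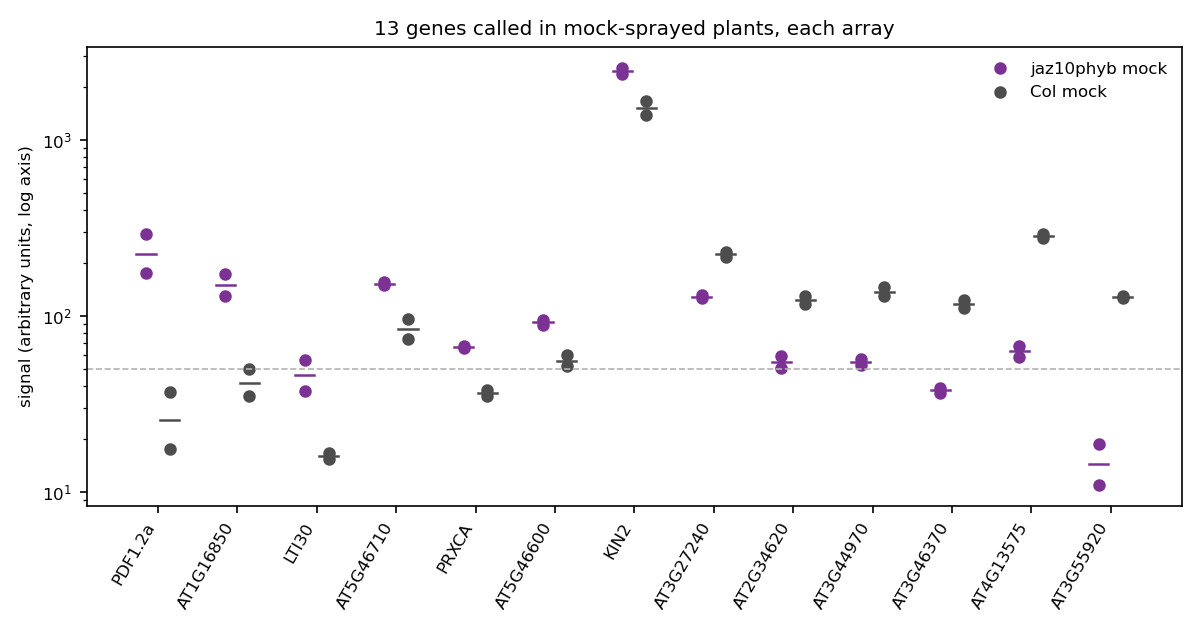
Signal (arbitrary units, log axis) of the 13 genes called with all arrays, in each jaz10phyb mock array (purple) and each Col mock array (grey), with bars at the mean of the log2 values. The 2 genotypes do not overlap for any of the 13, and the dashed line marks the signal minimum of 50 that a gene had to reach in at least 1 array of the series.

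The largest rises among the called genes were in plant defensins, small secreted antifungal peptides that serve as markers of joint jasmonate and ethylene signalling. PDF1.2a (AT5G44420) had signals of 291 and 175 in jaz10phyb, against 37.1 and 17.5 in Col, a difference of 3.10 ± 0.51 (adjusted p = 0.0191) or 8.55-fold. PDF1.2b (AT2G26020) had 161 and 113 in jaz10phyb, against 26.1 and 22 in Col, a difference of 2.44 ± 0.43 (adjusted p = 0.00997 in the reduced fit and 0.0607 with all arrays). Both jaz10phyb arrays were above both Col arrays for each gene, although array 1 was well above array 2 within jaz10phyb. Probes may be shared between these near-identical genes, so their values are uncertain as separate measurements. The thionin THI2.2 (AT5G36910), another antimicrobial peptide gene, had 64.8 and 57.8 in jaz10phyb, against 34.9 and 45 in Col, with a difference of 0.61 ± 0.15 that was not called in either fit (adjusted p = 0.161 and 0.0735). Only 3 of the 15 genes listed as defensin, thionin and ethylene-response outputs of jasmonate signalling were tested. Of these, 1 was called higher with all arrays and 2 in the reduced fit, against 0.123% and 0.844% of all genes, and their median difference was 2.44.

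Several cold and dehydration genes were higher in jaz10phyb. Such genes encode dehydrins and related hydrophilic proteins that protect membranes and proteins when water is short, and abscisic acid and low temperature induce them. The list of 49 such genes had 6 tested members, and all 6 were higher in jaz10phyb with no overlap between the groups, where 20.6% of all genes tested lay above Col without overlap. With all arrays 2 of the 6 were called higher and in the reduced fit 5, against 0.123% and 0.844% of all genes. The median difference was 0.80. The fit of the 8 Col and jaz10phyb arrays also called 5 of the 6, and that of the 4 arrays compared called 2. Of all 5689 genes, these 2 fits called 103 and 63 in either direction. Both calls made with all arrays, LTI30 and KIN2, were lost under quantile normalization, LTI30 also in a trended robust fit and KIN2 in the fits of mock arrays only and of the 4 arrays compared and with no filter. Each was also lost without some single arrays. LTI30 reached the signal minimum of 50 in a single array, jaz10phyb mock array 1, so it entered the test only through the group in which it is high. Of the other 5 members, 1 was called with all arrays and 4 in the reduced fit, with a median difference of 0.70.

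The dehydrin LTI30 (AT3G50970) had signals of 56.5 and 37.2 in jaz10phyb, against 16.7 and 15.4 in Col, a difference of 1.46 ± 0.21 (adjusted p = 0.0101). Both jaz10phyb arrays were above Col, but array 2 and both Col arrays lay under the signal minimum. With no filter on signal LTI30 was called as well (adjusted p = 0.0179), and with 16 in place of 1 added before the logarithm the difference was 0.95. KIN2 (AT5G15970), a cold-induced gene that is nearly identical to its untested neighbour KIN1, had 2556 and 2366 in jaz10phyb, against 1656 and 1377 in Col, a difference of 0.70 ± 0.11 (adjusted p = 0.0191). COR15A (AT2G42540) and COR15B (AT2G42530) encode chloroplast proteins that stabilise membranes in frost. COR15B had 1203 and 1295 in jaz10phyb, against 661 and 671 in Col, a difference of 0.91 ± 0.14 (adjusted p = 0.00569 in the reduced fit and 0.0587 with all arrays). COR15A, its neighbour on chromosome 2 and the most abundant of the group, had 5624 and 5492 in jaz10phyb, against 3524 and 3613 in Col, a difference of 0.64 ± 0.13 (adjusted p = 0.023 in the reduced fit and 0.0798 with all arrays). For COR15A and COR15B the spread within a genotype was far smaller than the gap between the genotypes. The dehydrin COR47 (AT1G20440) had 1515 and 1527 in jaz10phyb, against 991 and 1008 in Col, a difference of 0.61 ± 0.12 (adjusted p = 0.0223 in the reduced fit and 0.612 with all arrays). Its standard error with all arrays was 0.25. The zinc-finger repressor ZAT10 (AT1G27730) had 94.7 and 91.2 in jaz10phyb, against 53.6 and 34.3 in Col. Its difference was 1.1 ± 0.40 with all arrays and was not called in either fit.

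For 5 of the 6 genes the double mutant also stood above both single mutants. The share of all genes tested with that order was not computed, so the count has nothing to be set against. COR15B had 1203 and 1295 in jaz10phyb, 664, 616 and 743 in phyb, 713 and 974 in jaz10 and 661 and 671 in Col, all mock-sprayed. LTI30 had 56.5 and 37.2 in jaz10phyb, 18.5, 17 and 17.7 in phyb and 18.16 and 22.2 in jaz10. Each jaz10phyb array exceeded every array of the other 3 genotypes for both genes, as it did for COR15A, COR47 and KIN2, whereas ZAT10 was lower in both jaz10phyb arrays than in every phyb array and overlapped with jaz10. Against phyb, LTI30 differed by 1.32 ± 0.19 (adjusted p = 0.0419 with all arrays) and COR15B by 0.83 ± 0.14 (adjusted p = 0.0415 in the reduced fit and 0.085 with all arrays). Against jaz10, LTI30 differed by 1.15 ± 0.21 (adjusted p = 0.0264 and 0.0652), and COR15B by 0.58 ± 0.14 (adjusted p = 0.0899 and 0.409). LTI30 passed the signal filter only through jaz10phyb mock, so its tests against the single mutants are not free of that selection. KIN2, COR15A and COR47 were not called against either single mutant in either fit.

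The unnamed gene AT1G16850 showed the same order of genotypes and was called in every comparison of the double mutant with another mock-sprayed genotype. Its signals were 173 and 129.9 in jaz10phyb, 53.8, 72.2 and 73.6 in phyb, 45.8 and 55.4 in jaz10 and 49.9 and 35 in Col. The difference was 1.82 ± 0.19 (adjusted p = 0.000604) against Col, 1.18 ± 0.18 (adjusted p = 0.0419) against phyb and 1.56 ± 0.19 (adjusted p = 0.00365) against jaz10, each with all arrays. AT1G70640 had 258 and 209.7 in jaz10phyb, against 102 and 52.3 in Col, a difference of 1.66 ± 0.27 (adjusted p = 0.00658 in the reduced fit and 0.0798 with all arrays).

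**Figure D2:**
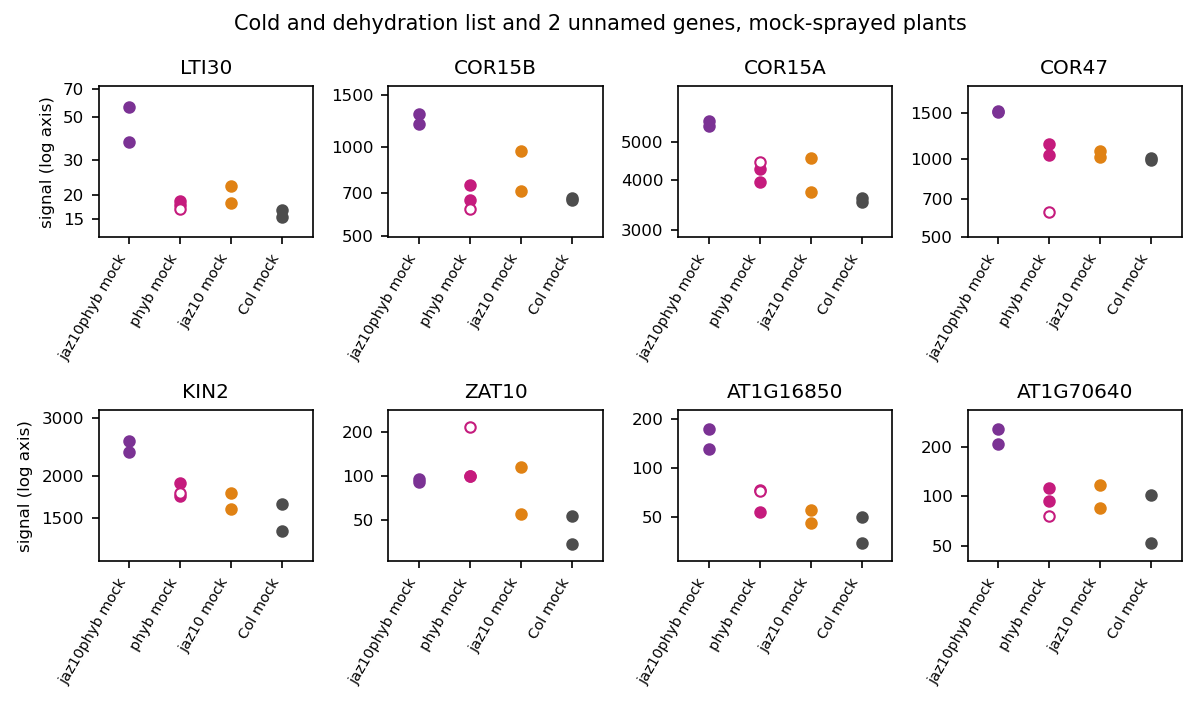
Signal (log axis) of the 6 tested cold and dehydration genes and of AT1G16850 and AT1G70640 in each mock-sprayed array, with jaz10phyb at the left and Col at the right, and phyb mock array 2 drawn as an open circle. For all genes shown but ZAT10, both jaz10phyb arrays stand above every array of the other 3 genotypes.

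In the reduced fit, enzymes that remove jasmonate were higher in jaz10phyb in the absence of added hormone. JOX2 (AT5G05600), JOX3 (AT3G55970) and JOX4 (AT2G38240) are oxidases that hydroxylate jasmonic acid and so inactivate it, and they are themselves induced by the hormone. JOX3 had signals of 46.2 and 34.3 in jaz10phyb, against 11.3 and 10.7 in Col, a difference of 1.77 ± 0.20 (adjusted p = 0.000716 in the reduced fit and 0.738 with all arrays). JOX4 had 37 and 28 in jaz10phyb, against 14.7 and 14.2 in Col, a difference of 1.1 ± 0.19 (adjusted p = 0.00866 in the reduced fit and 0.775 with all arrays). JOX2 had 47.8 and 48 in jaz10phyb, against 28 and 26.3 in Col, a difference of 0.80 ± 0.15 (adjusted p = 0.0202 in the reduced fit and 0.881 with all arrays). The genotypes did not overlap for any of the 3, and every one of these mock signals lay below the signal minimum of 50, so the sizes are uncertain. With 16 added in place of 1, the difference was 1.05 for JOX3 and 0.67 for JOX4. The standard errors with all arrays were 1.04 for JOX3, 0.69 for JOX4 and 0.71 for JOX2. These 3 were the tested members of a list of 12 jasmonate catabolism genes, none called with all arrays and 3 called higher in the reduced fit, against 0.123% and 0.844% of all genes, with a median difference of 1.1.

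Of 6 further genes of jasmonate synthesis, signalling and output, only CHAT was called, in the reduced fit. CHAT (AT3G03480), the acetyltransferase that makes the leaf volatile hexenyl acetate, had 37.8 and 35.4 in jaz10phyb, against 16.3 and 15 in Col, a difference of 1.18 ± 0.13 (adjusted p = 0.000525 in the reduced fit and 0.823 with all arrays), or 0.73 with 16 added. Its standard error with all arrays was 0.82. The carboxyl methyltransferase JMT (AT1G19640), which turns jasmonic acid into MeJA, had 49.7 and 41 in jaz10phyb, against 15.2 and 28 in Col, and was not called (1.09 ± 0.31, adjusted p = 0.116 in the reduced fit). OPCL1 (AT1G20510), a ligase of jasmonate synthesis, had 596 and 582 in jaz10phyb, against 464 and 425 in Col, and was not called (0.41 ± 0.19, adjusted p = 0.375 in the reduced fit). Both synthesis genes lay above Col without overlap, where 20.6% of all genes tested did. The transcription factors MYC3 and MYC4, direct targets of JAZ repression at the protein level, differed by -0.01 ± 0.13 and 0.05 ± 0.17 in the reduced fit and were not called. MYC4 reached the signal minimum only in jaz10phyb mock. NAI1, a regulator of endoplasmic reticulum bodies, had 9.61 and 6.18 in jaz10phyb, against 6.85 and 7.95 in Col, and its arrays overlapped.

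Genes that MeJA raises were frequent among the higher calls of the reduced fit. The 2 doubted arrays were singled out on MeJA-responsive genes, so the choice of fit bears on calls of such genes. How far it does so was not tested. The response to MeJA was read from jaz10 in a fit of the jaz10 and phyb arrays without the 2 doubted ones. None of these arrays is in the groups compared, but they enter the shared spread. This list was formed after the data were seen. MeJA raised 524 and lowered 710 of the 5689 genes. Of the 48 genes called higher in mock-sprayed jaz10phyb, 25 were raised by MeJA in jaz10 (52.1% of the 48 and 4.77% of the 524), where 9.21% of all genes tested were. Of the 31 called lower, 11 were lowered by MeJA (35.5% of the 31 and 1.55% of the 710), where 12.5% of all genes were. The 31 include the 4 genes that reached the signal minimum only in Col mock arrays. Their signals lay under that minimum in all other arrays, MeJA arrays included, so the 35.5% is not free of that selection. The share without these 4 was not computed. In the opposite direction, 7 of the 48 were lowered by MeJA (14.6% of the 48) and 3 of the 31 were raised by it (9.68% of the 31). These 3 were DFR, 5MAT and AT3G44970. With all arrays, none of the 7 higher calls was a raised gene and 2 were lowered genes. Of the 6 lower calls, 1 was a raised gene, AT3G44970, and none was a lowered gene. The fit of the 8 Col and jaz10phyb arrays called 38 of the 524 raised genes higher and 2 lower. That of the 4 arrays compared called 22 higher and 3 lower. Of all 5689 genes, they called 103 and 63 in either direction. Of the 710 lowered genes, these 2 fits called 13 and 8 lower, and 8 and 5 higher. Over all 524 raised genes the median difference was 0.15, 387 of them were positive and 232 lay above Col without overlap, where 2633 of all 5689 genes were positive and 20.6% lay above. Over the 710 lowered genes the median was -0.08, 467 were negative and 258 lay below Col without overlap, where 24.2% of all genes did. In plants sprayed with MeJA, the median of the raised genes was -0.05. On the MeJA score the jaz10phyb mock arrays stood at -0.63 and -0.64, against -0.88 and -0.92 for the Col mock arrays, and MeJA-sprayed plants stood at 0.80 and 0.82 in jaz10phyb, against 0.80 and 0.85 in Col.

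Several of these 25 genes have no name. AT1G54020 had 50.9 and 61 in jaz10phyb, against 14.7 and 11.1 in Col, a difference of 2.05 ± 0.27 (adjusted p = 0.00253 in the reduced fit and 0.732 with all arrays), or 1.32 with 16 added. After MeJA its signals were 989 and 624 in jaz10phyb, against 276 and 334 in Col. The double mutant was thus above Col under both sprays. AT1G52000 had 566 and 492 in jaz10phyb, against 178 and 179.8 in Col, a difference of 1.55 ± 0.17 (adjusted p = 0.000669 in the reduced fit and 0.469 with all arrays). AT3G28220, far more abundant, had 2999 and 2651 in jaz10phyb, against 583 and 811 in Col, a difference of 2.03 ± 0.31 (adjusted p = 0.00549 in the reduced fit and 0.161 with all arrays). AT3G28270 had 133 and 95 in jaz10phyb, against 32.8 and 36.1 in Col, a difference of 1.68 ± 0.23 (adjusted p = 0.0031 in the reduced fit and 0.617 with all arrays). None of these 4 genes overlapped between the genotypes. Among named genes, TBL37, of a family that acetylates cell-wall polysaccharides, had 98.3 and 97.5 in jaz10phyb, against 47.2 and 57.6 in Col, a difference of 0.90 ± 0.16 (adjusted p = 0.0124 in the reduced fit and 0.876 with all arrays). The glycosyl hydrolase GH9B8 had 232 and 226 in jaz10phyb, against 128 and 117 in Col, a difference of 0.90 ± 0.13 (adjusted p = 0.00364 in the reduced fit and 0.473 with all arrays). Both jaz10phyb arrays exceeded both Col arrays for TBL37 and GH9B8 too.

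**Figure D3:**
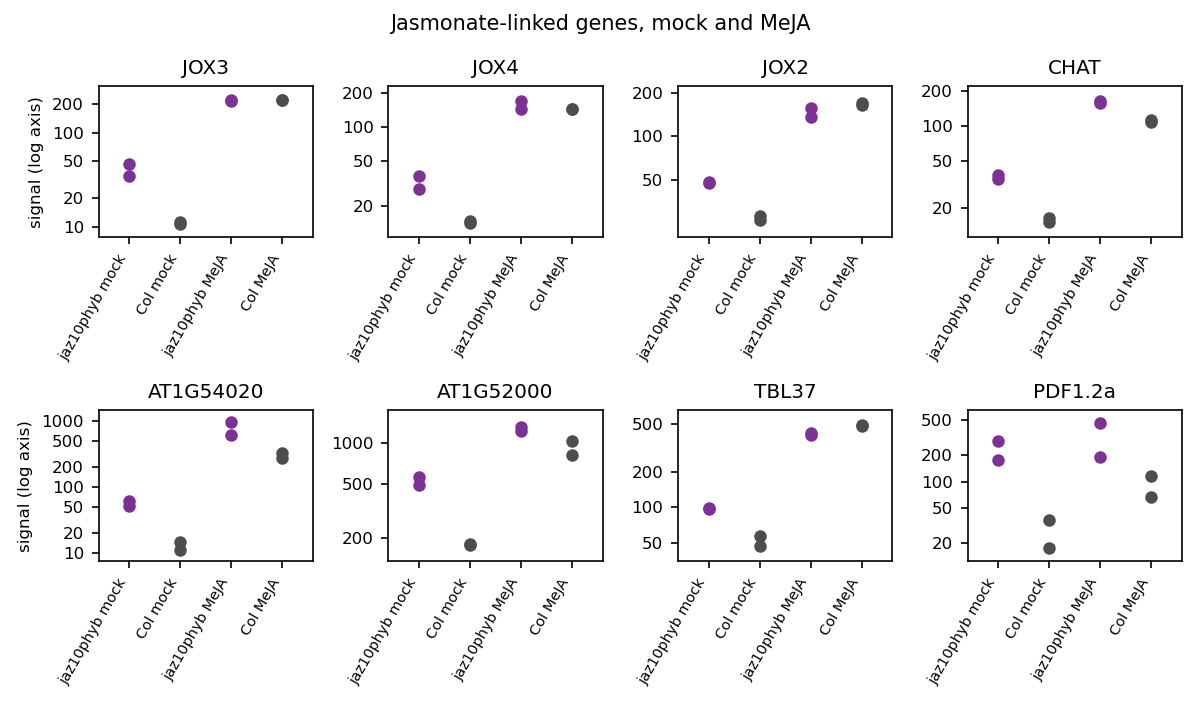
Signal (log axis) of the JOX genes, CHAT, 3 genes raised by MeJA in jaz10 and PDF1.2a in each jaz10phyb (purple) and Col (grey) array, with mock-sprayed plants at the left and MeJA-sprayed plants at the right of each panel. Mock-sprayed jaz10phyb lies above mock-sprayed Col in all 8 panels, and after MeJA the 4 arrays of JOX3 lie between 215 and 224.

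Anthocyanin genes had negative differences, of which few were called. Anthocyanins are red flavonoid pigments whose late synthesis genes respond to light and to jasmonate. All 7 tested members of a list of 34 had a negative difference, with a median of -0.75, and 5 of them lay below Col without overlap, where 24.2% of all genes tested did. None was called with all arrays and 2 were called lower in the reduced fit, against 0.105% and 0.545% of all genes. The fit of the 8 Col and jaz10phyb arrays and that of the 4 arrays compared each called 1 of the 7. Of all 5689 genes, they called 103 and 63 in either direction. DFR (AT5G42800), the reductase that commits flavonoids to anthocyanin, had 98.2 and 91.8 in jaz10phyb, against 355 and 240.4 in Col, a difference of -1.61 ± 0.21 (adjusted p = 0.00208 in the reduced fit and 0.0772 with all arrays), or 3.05-fold lower. The malonyltransferase 5MAT (AT3G29590) had 20.7 and 36.7 in jaz10phyb, against 62 and 59 in Col, a difference of -1.1 ± 0.25 (adjusted p = 0.0431 in the reduced fit and 0.184 with all arrays), and of -0.70 without jaz10phyb mock array 1. Neither gene overlapped between the genotypes. The glucosyltransferase UGT75C1 (AT4G14090) had 12.4 and 16.7 in jaz10phyb, against 33.5 and 23.6 in Col, and was not called (-0.92 ± 0.22, adjusted p = 0.0598 in the reduced fit). AT1G03940, a further locus of the list, had 42.7 and 67.1 in jaz10phyb, against 91.6 and 89.4 in Col. AT1G03495 had 26.5 and 29.7 in jaz10phyb, against 53.6 and 36.1 in Col. Neither was called, although the arrays did not overlap. The list members UGT79B1 and CHIL overlapped between the genotypes, and their sign turned when 1 array was left out.

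DFR in the single mutants had 60.3, 134 and 83.5 in phyb and 197 and 285 in jaz10. Its signal in phyb was lower than in jaz10phyb in 2 of 3 arrays, all but the doubted array 2, and the difference between jaz10phyb and phyb was 0.41 ± 0.21 (adjusted p = 0.659 in the reduced fit). Against jaz10 it was -1.31 ± 0.21 (adjusted p = 0.0114 in the reduced fit and 0.238 with all arrays).

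Nuclear genes of photosynthesis and chlorophyll synthesis had slightly lower values throughout, and none was called with all arrays or in the reduced fit. All 11 tested of 61 photosynthesis genes had a negative difference with a median of -0.19, and 10 lay below Col without overlap. Among all 5689 genes, 3056 were negative and 24.2% lay below Col without overlap. The fit of the 8 Col and jaz10phyb arrays called 1 of the 11 lower, where it called 103 of all 5689 genes in either direction. The largest was LHCB4.2 (AT3G08940), an antenna protein of photosystem II, with 154 and 149 in jaz10phyb, against 229 and 247 in Col, and a difference of -0.65 ± 0.15 (adjusted p = 0.0521 in the reduced fit and 0.258 with all arrays). It was followed by phosphoribulokinase PRK of the Calvin cycle (-0.34 ± 0.21 in the reduced fit) and the photosystem II subunit PSBY (-0.32 ± 0.11). The 11 genes summed to 15895 and 15349 in jaz10phyb, against 17411 and 17556 in Col. All 4 tested of 21 chlorophyll synthesis genes lay below Col without overlap, where 24.2% of all genes did, with a median of -0.30. The reductase CHLP, which finishes the phytol tail, had 1047 and 976 in jaz10phyb, against 1217 and 1359 in Col. The light-dependent reductase PORB had 1794 and 1842 in jaz10phyb, against 2095 and 2221 in Col. The methyltransferase CHLM had 192 and 183 in jaz10phyb, against 233 and 249 in Col. GSA1 encodes the aminomutase that makes the common precursor of tetrapyrroles and had 207 and 233 in jaz10phyb, against 261 and 257 in Col. In whole plants, fewer green cells and less RNA per cell cannot be told apart. The 63 tested plastid-encoded genes had a median difference of 0.03, and none was called.

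**Figure D4:**
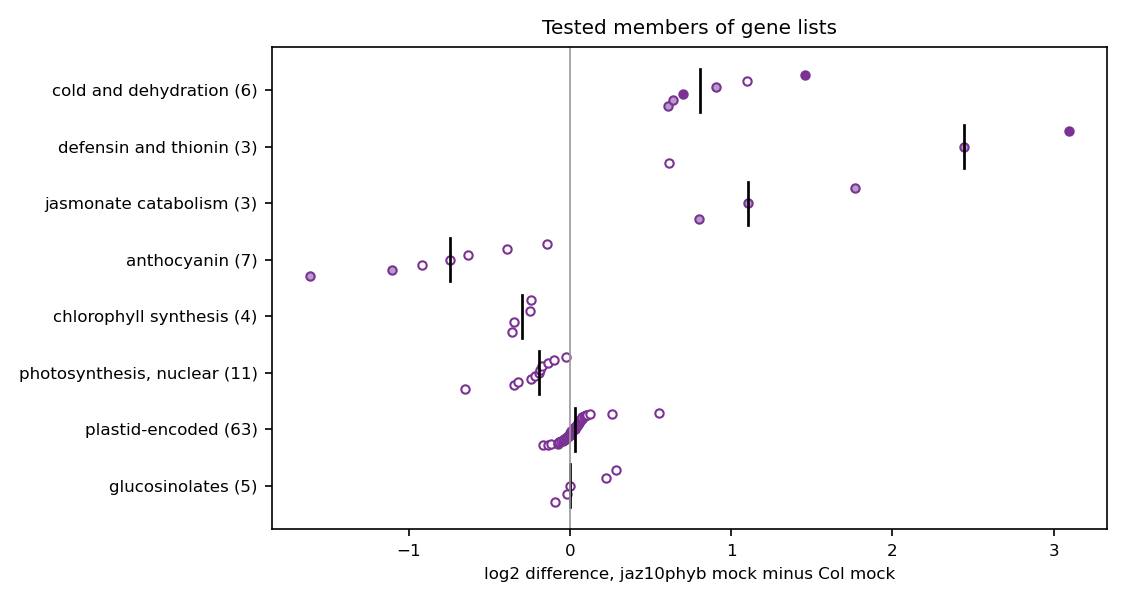
Log2 difference between jaz10phyb and Col, mock-sprayed, of every tested member of 8 gene lists, with the number tested in parentheses and a black bar at the median. Dark points were called with all arrays, pale points only in the reduced fit and open points in neither. The cold and dehydration, defensin and catabolism points are all above 0, and the anthocyanin, chlorophyll and nuclear photosynthesis points all below it.

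Of the genes tied to shade and PIF signalling, 3 of 28 were tested. PIF7 (AT5G61270), a transcription factor that drives growth in shade, had 84.1 and 82.1 in jaz10phyb, against 140.5 and 147 in Col, a difference of -0.78 ± 0.15 (adjusted p = 0.0223 in the reduced fit and 0.19 with all arrays), and its groups did not overlap. IAA29 (AT4G32280), an auxin-responsive gene raised in shade, had 26 and 25.5 in jaz10phyb, against 9.81 and 11.8 in Col, a difference of 1.18, or 0.64 with 16 added. Its standard error was 0.35 in the reduced fit and 0.55 with all arrays. It was not called in either fit, and all 4 signals lay below the minimum. The homeobox gene HAT2 (AT5G47370) had 69.4 and 92.3 in jaz10phyb, against 63.5 and 61.3 in Col, and was not called (0.35 ± 0.17, adjusted p = 0.388 in the reduced fit).

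Among the remaining named genes, PRXCA (AT3G49110), a cell-wall peroxidase of the defence oxidative burst, had 67.3 and 65.5 in jaz10phyb, against 35 and 38.1 in Col, a difference of 0.84 ± 0.15 (adjusted p = 0.0449). That call was lost with the replicate block, with mock arrays only, with no filter, under quantile normalization and without some single arrays. The aldehyde dehydrogenase ALDH7B4 had 247 and 217 in jaz10phyb, against 126 and 137 in Col, a difference of 0.81 ± 0.16 (adjusted p = 0.0233 in the reduced fit and 0.423 with all arrays), and the subtilase ATSBT5.2 had 98.8 and 125 in jaz10phyb, against 68.8 and 59 in Col, a difference of 0.80 ± 0.13 (adjusted p = 0.00866 in the reduced fit and 0.318 with all arrays). The arrays of these 3 genes did not overlap. On the lower side, TRY, a repressor of trichome formation, had 31.7 and 37.4 in jaz10phyb, against 67.8 and 58.6 in Col, a difference of -0.85 ± 0.19 (adjusted p = 0.0436 in the reduced fit and 0.583 with all arrays). The peptide signal gene CLE41, which acts in vascular development, had 57.1 and 62.7 in jaz10phyb, against 89.3 and 122 in Col, a difference of -0.80 ± 0.17 (adjusted p = 0.0308 in the reduced fit and 0.0772 with all arrays). NDC1, a chloroplast NAD(P)H dehydrogenase, had 93.5 and 86.6 in jaz10phyb, against 134 and 136 in Col, a difference of -0.58 ± 0.13 (adjusted p = 0.0436 in the reduced fit and 0.0979 with all arrays). For these 3 genes, too, the groups were apart. Allantoinase (ALN), an enzyme of purine breakdown, had 28.8 and 19.6 in jaz10phyb, against 41.2 and 58.8 in Col, a difference of -1.02 ± 0.21 (adjusted p = 0.028 in the reduced fit and 0.161 with all arrays). It reached the signal minimum only in a Col mock array, so it entered the test only through the group in which it is high.

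Most of the genes with the largest falls have no symbol. AT3G55920 had 11 and 18.6 in jaz10phyb, against 127 and 130.1 in Col, a difference of -3.08 ± 0.24 (adjusted p = 4.9e-05) or 8.45-fold lower, and AT4G13575 had 67.8 and 58.5 in jaz10phyb, against 277 and 292 in Col, a difference of -2.16 ± 0.23 (adjusted p = 0.000604) or 4.46-fold lower. The same split by genotype held under both sprays. After MeJA, AT3G55920 had 17.8 and 19.6 in jaz10phyb, against 162 and 136 in Col, and AT4G13575 had 85.8 and 46.6 in jaz10phyb, against 272 and 339 in Col. In mock-sprayed single mutants AT3G55920 had 8.94, 16.8 and 13.3 in phyb and 136 and 147 in jaz10, and AT4G13575 had 66.4, 64.8 and 48.9 in phyb and 260.3 and 261 in jaz10. Every array of a genotype with the phyb label was thus below every array of a genotype without it for both genes. The differences from phyb were 0.17 ± 0.22 and 0.08 ± 0.21, neither called.

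AT3G27240 and its neighbour AT3G27230 on chromosome 3 were lower in all 3 mutant genotypes. AT3G27240 had 131 and 125 in jaz10phyb, 128, 141 and 114 in phyb, 121 and 133 in jaz10 and 229 and 217 in Col, a difference of -0.79 ± 0.12 (adjusted p = 0.0182) for jaz10phyb. AT3G27230 had 47.6 and 44.2 in jaz10phyb, 46.3, 57.1 and 39.2 in phyb, 37.1 and 56.4 in jaz10 and 87.5 and 88.2 in Col, a difference of -0.92 ± 0.16 (adjusted p = 0.00867 in the reduced fit and 0.0587 with all arrays). The phyb mutant differed from the same Col arrays by -0.88 for AT3G27240 and jaz10 by -0.81, and the values of the 3 mutants overlapped. A second pair of neighbours on chromosome 3, AT3G16660 and AT3G16670, was lower too. AT3G16660 had 626 and 534 in jaz10phyb, against 1186 and 1018 in Col, a difference of -0.93 ± 0.16 (adjusted p = 0.00907 in the reduced fit and 0.104 with all arrays), and AT3G16670 had 89.6 and 94.6 in jaz10phyb, against 187 and 184 in Col, a difference of -1.0 ± 0.21 (adjusted p = 0.0327 in the reduced fit and 0.0798 with all arrays). With COR15A and COR15B, these were the 3 pairs of adjacent genes among the 79.

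**Figure D5:**
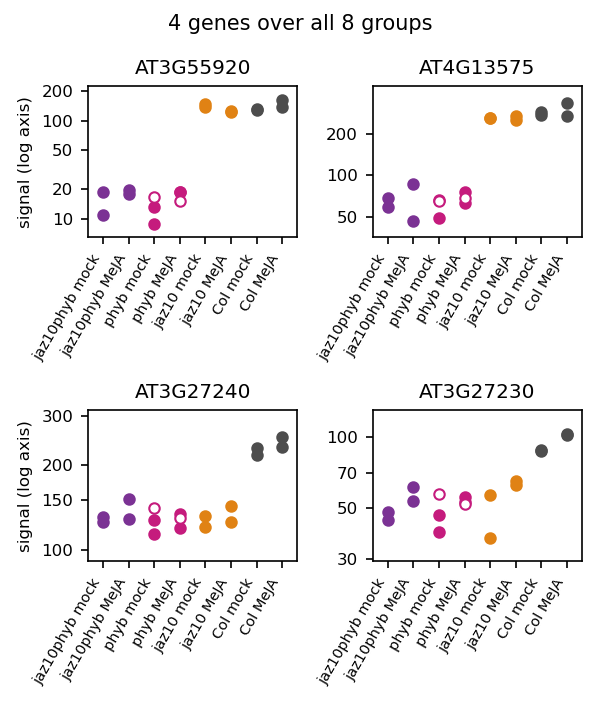
Signal (log axis) of AT3G55920, AT4G13575, AT3G27240 and AT3G27230 in each of the 18 arrays, by genotype and spray, with the 2 doubted phyb arrays as open circles. AT3G55920 and AT4G13575 are low in every jaz10phyb and phyb array and high in every jaz10 and Col array, and AT3G27240 and AT3G27230 are high only in Col, under both sprays.

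Of the other genes called with all arrays, 5 have no symbol. AT3G46370 had 36.7 and 38.8 in jaz10phyb, against 111 and 122 in Col, a difference of -1.60 ± 0.30 (adjusted p = 0.0487). AT3G44970 had 57.2 and 52.3 in jaz10phyb, against 145 and 129 in Col, a difference of -1.31 ± 0.22 (adjusted p = 0.0191). AT2G34620 had 50.8 and 59.1 in jaz10phyb, against 117 and 129.6 in Col, a difference of -1.15 ± 0.18 (adjusted p = 0.0182). These 3 were lower in jaz10phyb, and the next 2 were higher. AT5G46710 had 156 and 149 in jaz10phyb, against 73.6 and 95.8 in Col, a difference of 0.85 ± 0.14 (adjusted p = 0.0191). AT5G46600 had 89 and 95.1 in jaz10phyb, against 59.7 and 52 in Col, a difference of 0.71 ± 0.10 (adjusted p = 0.00822). None of these 5 overlapped between the genotypes. Of the 13 genes, AT1G16850, AT3G55920 and AT4G13575 were called whichever single array of the series was left out. The 13 calls became 6 without Col mock array 1, 4 without Col mock array 2, 3 without jaz10phyb mock array 1 and 4 without jaz10phyb mock array 2. Of the 79 genes, 15 were called in the reduced fit whichever of the 4 compared arrays was left out: AT1G16850, LTI30, PRXCA, JOX3, CHAT, GH9B8, AT1G52000, AT1G54020, AT3G28270 and AT4G21910 among the higher ones, and DFR, AT3G55920, AT4G13575, AT3G44970 and AT3G46370 among the lower ones.

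Set beside the single mutants, the double mutant differed from phyb at 2 genes with all arrays, LTI30 and AT1G16850, and at 9 in the reduced fit (0.0352% and 0.158% of genes tested). LTI30 passed the signal filter only through jaz10phyb mock, so none of its tests in this paragraph is free of that selection. The 9 were AT1G16850, LTI30, JOX3, CHAT, COR15B, EXPA16, AT3G61420 and AT3G24420 on the higher side and AT5G24210 on the lower. It differed from jaz10 at 4 genes with all arrays and 33 in the reduced fit (0.0703% and 0.58%). With all arrays 3 of these 4 were lower, 0.0527% of the genes tested. CHAT had 37.8 and 35.4 in jaz10phyb, 22.2, 138 and 19.9 in phyb and 18.21 and 20.6 in jaz10, and its difference from jaz10 was 0.88 ± 0.13 (adjusted p = 0.00717 in the reduced fit). JOX3 had 14.1, 189 and 21.6 in phyb, where array 2 is the doubted one, and 22.2 and 27.5 in jaz10. The expansin EXPA16, a wall-loosening protein, had 176 and 141 in jaz10phyb against 71.4, 87.8 and 88.5 in phyb, and it was not called against Col. A test of whether the double mutant departs from the sum of the single-mutant differences called no gene in limma in either fit. Of the 5689 genes, 228 with all arrays and 306 in the reduced fit had an unadjusted p under 0.05. With no departure at any gene, a share of about 0.05 of the genes would have such a p. For AT1G16850 that departure was 0.91 ± 0.26 (adjusted p = 0.887), and for LTI30 1.02 ± 0.28 (adjusted p = 0.887).

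Because jaz10phyb, phyb and jaz10 were all set against the same 2 Col mock arrays, their differences share any deviation of those arrays and are given only side by side. In the reduced fit the phyb mutant had 28 genes called higher and 30 called lower than Col, 0.492% and 0.527% of the genes tested. With all arrays it had 11 called higher and 16 lower (0.193% and 0.281%). The jaz10 mutant had 1 called higher and 1 lower in the reduced fit (0.0176% each) and none with all arrays. The differences and standard errors that follow are from the reduced fit. PDF1.2a differed from Col by 3.10 ± 0.47 in jaz10phyb, 2.62 ± 0.47 in phyb and 1.57 ± 0.47 in jaz10. LTI30 differed by 1.46 ± 0.21 in jaz10phyb, 0.16 ± 0.21 in phyb and 0.31 ± 0.21 in jaz10. JOX3 differed by 1.77 ± 0.20 in jaz10phyb, 0.62 ± 0.20 in phyb and 1.1 ± 0.20 in jaz10. For PDF1.2a the double mutant overlapped with phyb, and the difference between them, 0.48 ± 0.47, was not called (adjusted p = 0.89 in the reduced fit and 0.972 with all arrays). DFR differed by -1.61 ± 0.21 in jaz10phyb, -2.03 ± 0.21 in phyb and -0.30 ± 0.21 in jaz10. IAA29 differed by 1.18 ± 0.35 in jaz10phyb, 1.89 ± 0.35 in phyb and -0.31 ± 0.35 in jaz10.

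The comparison of the same genotypes after MeJA takes its group means from other arrays. It shares the spread of each gene with the mock comparison, so calls in both are not independent. It called 28 genes with all arrays, 6 higher and 22 lower (0.492% of genes tested, 0.387% lower), and 185 in the reduced fit, 58 higher and 127 lower (3.25%, 2.23% lower). Of the 79 genes of mock-sprayed plants, 64 had a difference of the same sign after MeJA, where 56.0% of all genes did. Both comparisons called 26 of them, 15 higher and 11 lower in jaz10phyb, and none was called in opposite directions. These 26 are 32.9% of the 79 and 14.1% of the 185. Of the 13 genes called with all arrays, 12 kept their sign and 4 were called again, all lower: AT3G55920, AT4G13575, AT3G44970 and AT3G27240. The median of the cold and dehydration list was 0.33 after MeJA, that of jasmonate catabolism -0.04 and that of the anthocyanin list -0.96, with -0.08 over all genes tested. LTI30 had 19.98 and 19.9 in jaz10phyb, against 23.7 and 15.4 in Col, and COR15B had 786 and 848 in jaz10phyb, against 563 and 644 in Col, neither called. JOX3 had 215 and 219.7 in jaz10phyb, against 223 and 224 in Col. DFR had 215 and 266 in jaz10phyb, against 494 and 442 in Col, a difference of -0.96 ± 0.21 (adjusted p = 0.0274 in the reduced fit and 0.214 with all arrays).

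Whether the genotype difference itself changed with MeJA was tested in the same model. With all arrays this called AT5G17010 alone of the 5689 genes (0.0176%), a call lost with the replicate block, with no filter and without any 1 of the 8 arrays concerned. The reduced fit called 6 genes (0.105%). JOX3, AT1G25230 and AT3G07730 of these 6 were also called in mock-sprayed plants in that fit. JOX3 had a change of -1.81 ± 0.29 (adjusted p = 0.028 in the reduced fit and 0.835 with all arrays). AT1G25230 had 45.9 and 40.5 in jaz10phyb, against 77.3 and 77.3 in Col, under the mock spray, and 47.9 and 45.6 in jaz10phyb, against 31.9 and 35.1 in Col, after MeJA. AT3G07730 had 34.9 and 30.04 in jaz10phyb, against 14.5 and 13.8 in Col, under the mock spray, and 37.1 and 26.8 in jaz10phyb, against 39.3 and 44.8 in Col, after MeJA. For LTI30, which passed the signal filter only through jaz10phyb mock, the change was -1.40 ± 0.30 (adjusted p = 0.069 and 0.245), which passed in neither.

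The tissue label was checked on marker lists. None of 16 floral and none of 16 senescence genes was tested, and 1 of 14 root and 2 of 8 guard-cell genes were. PYK10, a glucosidase of root endoplasmic reticulum bodies, had 717 and 696 in jaz10phyb, against 989.8 and 920.1 in Col, and the stomatal lineage genes FAMA and SPCH summed to 113 and 117 in jaz10phyb, against 142 and 144 in Col. All 3 genes lay below Col without overlap, where 24.2% of all genes tested did, and none was called in either fit. PYK10 was also among the genes MeJA raised in jaz10, so its signal does not read root share alone. Under the mock spray it had 706 and 771 in jaz10 and 758, 1338 and 728 in phyb, where 1338 is the doubted array 2. The part of the 3 genes in the differences above was not tested.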

How the data were processed

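The deposited values are one linear signal intensity per probe set and array (Affymetrix Arabidopsis Gene 1.0 ST), made by the authors. Per the submitters' processing notes they used Affymetrix Expression Console. How probes were summarised, with which version and on which genome build was not given in the sources used here. Array medians over all 38408 probe sets ran from 14.87 to 17.5, so the arrays were used as scaled. The number of arrays limits the precision.

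Of the probe sets, 16722 were annotated to 1 gene, 759 to several and 20927 to none listed. Each gene was represented by its single-gene probe set with the highest mean, kept where the signal reached 50 in any array. The result was 5689 genes, of which 854 have a symbol. Names and gene neighbours came from the RefSeq TAIR10.1 gene table, to which 16670 single-gene probe sets matched. Since the values were linear, log2(signal + 1) was used. Group means of all 18 arrays were fitted with limma 3.58.1 in R 4.3.3 (lmFit and eBayes, Benjamini-Hochberg adjustment). Arrays with the same replicate number were not shown to pair. Alternatives covered the arrays fitted, a replicate block, the filter, the pseudocount, the scaling and the removal of each array. The fit was tested on simulated data.

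The genes named were those called with all arrays, the 12 largest rises and falls called in the reduced fit, up to 6 members of each gene list, and PDF1.2a, PDF1.2b, IAA29, DFR, LTI30 and KIN2. EXPA16, AT3G61420, AT3G24420, AT5G24210 and the neighbouring pairs were named after their values were seen. TBL37, GH9B8, ALDH7B4, ATSBT5.2, CLE41, NDC1 and AT4G21910 were also named outside these rules, after their calls were seen. So were AT1G25230, AT3G07730, AT5G17010, AT3G56260 and AT5G11250, from the test of dependence on the spray. AT1G75180, AT5G48490 and AT5G53090 were named for the way they passed the filter. The comparison, the members and the lists were chosen with earlier results of these data known. Lists with no tested member covered light signalling, auxin response, senescence and floral transition.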

Additional observations from a re-analysis of the deposited data

Results flagged for a closer look

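A direct test of whether the genotype difference changed with the spray called few genes. With all arrays it called AT5G17010, whose difference after MeJA minus that in mock-sprayed plants was -0.93. That call was lost with the replicate block, with no filter on signal and without any 1 of the 8 arrays concerned. In the reduced fit the genes called were AT1G25230 at 1.3, AT3G07730 at -1.54, JOX3 at -1.81, AT3G56260 at -1.25 and AT5G11250 at 1.34. Outside the gene-level table, 15 probe sets annotated to no gene or to several were called between mock-sprayed jaz10phyb and Col with all arrays when all probe sets were tested.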

How the results depend on the processing

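The count of 13 called genes between mock-sprayed jaz10phyb and Col was 79 without the 2 doubted phyb arrays, 103 with only Col and jaz10phyb arrays, 63 with only the 4 arrays compared, 21 with arrays centred on their median, 20 with a trended robust fit, 26 over all probe sets, 30 by unadjusted p and at least 2-fold, and 3 to 22 with single arrays left out. It was 19 with the replicate block and 84 with that block and without the 2 phyb arrays. Other settings (mock arrays only, no filter, a minimum of 100, a pseudocount of 16, quantile normalization) gave 9 to 18. The 79 became 24 to 48 without single arrays. After MeJA, 28 became 185 without the 2 phyb arrays, 4 with no filter and 2 to 6 without single arrays. The test of dependence on the spray gave 6 without the 2 phyb arrays and 0 with the replicate block, with no filter or without any single array. Against phyb, 2 became 9 without the doubted arrays, 5 with the replicate block, 0 with no filter and 0 to 1 without single arrays. Against jaz10, 4 became 33 and 2 to 4. The departure from the sum of the single mutants gave 0 throughout. Among the genes followed over these settings, the sign turned for 3, in both fits. Without single arrays NAI1 ranged from -0.22 (without jaz10phyb mock array 1) to 0.34, with -0.036 without Col mock array 1. UGT79B1 ranged from -0.79 to 0.014 and CHIL from -0.31 to 0.019, with the positive value without jaz10phyb mock array 1 for UGT79B1 and without Col mock array 1 for CHIL. The signs of MYC3 (-0.01) and MYC4 (0.05), whose arrays overlap between the genotypes, also depend on single arrays. The causes were not tested. The replicate numbers correlated at 0.0726 in 2 pairs. Signals near or under 50 give uncertain sizes.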

Other observations

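Gene groups outside the lists above had at most 1 call each with all arrays and in the reduced fit. None of the 5 tested glucosinolate genes was called, with a median difference of -0.0011. Of 3 tested genes of wall loosening none was called with all arrays or in the reduced fit. The fit of Col and jaz10phyb arrays and that of the 4 arrays compared each called 1 of the 3 lower. Of all 5689 genes, these fits called 103 and 63 in either direction. EXPA8 had the largest difference among the 3 wall genes at -1.11. None of the 19 tested UDP-glycosyltransferase genes and none of the 12 cytochrome P450 genes was called, with medians of -0.03 and 0.00. Of 12 trichome birefringence-like genes, TBL37 alone was called in the reduced fit, with 2 called in the fit of Col and jaz10phyb arrays, and of 5 peroxidase genes PRXCA alone. The plastid-encoded genes held 1 value apart from the rest, psbT at 0.55, which was not called. BSMT1, a methyltransferase of salicylate and benzoate, differed by 0.64, or 0.26 with 16 added before the logarithm, and the clock gene GI by 0.21, neither called.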
